A study of Mus musculus with 8 samples.

Results

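The subject is a set of 7 well-known long noncoding RNAs, taken by name from the 53465 genes listed in each count table of mouse CD4+ CD8+ (double-positive) thymocytes. Ensembl identifiers were matched to GENCODE M21 symbols, and all 7 were found once each. Of the 7, 3 are nuclear RNAs (Malat1, Neat1 and Kcnq1ot1) and 4 host small nucleolar RNAs, or snoRNAs (Gas5, Snhg1, Snhg8 and Snhg12). The rule for the set did not use measured values, though earlier results of these data were known when it was chosen. The cells came from NOD/ShiLtJ mice (NOD below), the inbred strain used as a model of spontaneous autoimmune diabetes, and from C57BL/6J mice, which served as the comparison strain. Both groups were untreated, live, doublet-excluded cells sorted from the thymus for CD4 and CD8a, and their total RNA was made into stranded libraries with a low-input kit that does not select for poly(A) tails. There were 4 libraries per strain, named here by the B number and the T number of their titles, so that NOD 1-2 has B number 1 and T number 2. The labels do not spell these numbers out, and the sources used here give neither the age nor the sex of the mice. For testing, the libraries of 1 strain with the same B number were added together, which left 2 samples per strain. No label says that the samples come from separate animals. The p-values therefore rest on the spread between samples, drawn towards that of all genes, and that spread may be technical.

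Malat1 is concentrated in nuclear speckles, the stores of splicing factors, and Neat1 is the architectural RNA of paraspeckles, nuclear bodies built on it by RNA-binding proteins. Kcnq1ot1 is an unspliced RNA transcribed from the paternal chromosome across an intron of Kcnq1, and in embryonic and placental tissue of mice it is known for silencing neighbouring imprinted genes. The snoRNA hosts are spliced transcripts whose introns carry the small RNAs that guide the modification of ribosomal RNA. Their starts are known for a terminal run of pyrimidines like that of ribosomal protein genes, and the spliced host RNA is removed by nonsense-mediated decay once it is translated.

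Malat1 (ENSMUSG00000092341) lies at chr19:5795690-5802672 and Neat1 (ENSMUSG00000092274) beside it at chr19:5824708-5845478, both on the minus strand of GRCm38 and both annotated as lincRNA. In each gene the annotated exons cover the whole span, 6983 and 20771 bases. The mature 3′ ends of Malat1 and of the long form of Neat1 carry no poly(A) tail of the usual kind and are known to fold an A-rich tract against U-rich motifs into a triple helix. The last bases before each end, read from the GENCODE M21 transcripts, are shown because they are the feature that sets these RNAs apart from polyadenylated ones. Each line ends with the A-rich tract, identical in both RNAs and written in capitals, and in Malat1 capitals also mark a U-rich stretch.
Malat1, chr19:5795982-5796081, minus strand, GRCm38: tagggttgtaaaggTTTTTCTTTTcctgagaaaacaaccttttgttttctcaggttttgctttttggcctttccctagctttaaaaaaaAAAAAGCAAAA
Neat1, chr19:5824708-5824807, minus strand, GRCm38: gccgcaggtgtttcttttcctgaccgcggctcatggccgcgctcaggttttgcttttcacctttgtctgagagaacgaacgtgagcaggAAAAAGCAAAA
The searched A-rich sequence occurred 1 time in each transcript, at the annotated end of Neat1 and 292 bases before the annotated end of Malat1. The counts are per gene, so the long and short forms of Neat1 were not separated.

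Kcnq1ot1 (ENSMUSG00000101609, chr7:143203458-143296549, minus strand, annotated as antisense) is a single exon of 93092 bases. Gas5 (ENSMUSG00000053332) is at chr1:161034422-161038539 on the plus strand, Snhg1 (ENSMUSG00000108414) at chr19:8723475-8726443 on the plus strand, Snhg8 (ENSMUSG00000104960) at chr3:123507552-123508404 on the minus strand and Snhg12 (ENSMUSG00000086290) at chr4:132308623-132311024 on the plus strand. Gas5, Snhg1 and Snhg8 are annotated as processed transcripts and Snhg12 as lincRNA. For Snhg1, Snhg8 and Snhg12 the annotated exons of all transcripts together cover the whole span, introns of the spliced forms included, so that their counts can include unspliced RNA. In Gas5 the exons cover all but 8.69% of the span, so its counts can include unspliced RNA too.

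The bases around the annotated starts are shown because pyrimidine-rich starts are a feature of snoRNA hosts that the choice of members did not use. Promoters were in the RefSeq table (GRCm38.p6) for 6 of the 7 RNAs, Neat1 being the exception. Each line gives 30 bases before the start and 30 from it on. The capitals mark the longest run of C and T inside the 10 bases on each side of the start, and at Snhg1 the run goes on past that window.
Malat1, chr19:5802643-5802702, minus strand: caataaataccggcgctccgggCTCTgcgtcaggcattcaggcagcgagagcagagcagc
Kcnq1ot1, chr7:143296518-143296577, minus strand: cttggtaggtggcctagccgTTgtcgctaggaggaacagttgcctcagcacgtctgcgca
Gas5, second listed start, chr1:161035136-161035195, plus strand: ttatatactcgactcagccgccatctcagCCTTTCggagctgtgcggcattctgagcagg
Snhg1, chr19:8723457-8723516, plus strand: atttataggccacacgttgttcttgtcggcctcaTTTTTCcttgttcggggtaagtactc
Snhg8, chr3:123508307-123508366, minus strand: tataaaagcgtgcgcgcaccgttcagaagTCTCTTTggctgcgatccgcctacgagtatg
Snhg12, chr4:132308648-132308707, plus strand: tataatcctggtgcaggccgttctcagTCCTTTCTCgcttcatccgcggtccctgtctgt
The run was 9 bases at Snhg12, 7 at Snhg8, 6 at Snhg1 and 6 at this start of Gas5, against 4 at Malat1 and 2 at Kcnq1ot1. Among 32851 promoters in the table, 4.51% had a run of at least 9 bases, 12.2% of at least 7, 20.2% of at least 6 and 54.4% of at least 4. The other listed start of Gas5 had a run of 3. At this start of Gas5 and at Snhg8 the annotated first base was a C followed by at least 4 bases of C or T, which held for 2.51% of promoters. These letters describe annotated starts, not start sites mapped in thymocytes. Of the motifs searched on both strands from 250 bases before to 50 after the start, TATAAA was found at Snhg1 and Snhg8 and in 13.6% of all promoters. CCAAT was found at Kcnq1ot1 and Snhg8 (37.4% of all promoters) and GGGCGG at both starts of Gas5, at Snhg1 and at Snhg8 (35.7%). CACGTG (7.15%) and CCGGAAG (8.86%) had no match in the windows of the 6 RNAs.

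The NOD libraries held 23.5 to 30.4 M reads in genes and the C57BL/6J libraries 8.53 to 15.7 M. Reads outside annotated genes made up 46.6% to 59.1% of the reads listed for NOD libraries and 39.98% to 53.9% for C57BL/6J libraries, lowest in C57BL/6J 1-1. Levels are given as CPM, each gene's reads as a share of the reads in genes, in parts per M. Markers of the sorted stage were abundant, the 15 genes listed for double-positive thymocytes summing to 18993 to 23422 CPM in NOD libraries and 23802 to 25391 CPM in C57BL/6J libraries. These sums did not overlap and were lower in NOD. Gene by gene the list was mixed, with 9 estimates above 0 (higher in NOD), 6 below and a median log2 fold change of 0.058. Summed markers of mature single-positive thymocytes came to 1225 to 1725 CPM in NOD and 1183 to 1381 CPM in C57BL/6J. For myeloid and dendritic cells the sum was 46.7 to 72.2 CPM in NOD and 22.05 to 34.7 CPM in C57BL/6J, without overlap and with none of the 13 markers at 0 throughout. B cell markers summed to 12.8 to 16.4 CPM in NOD and 11.9 to 21.2 CPM in C57BL/6J, epithelial and stromal markers to 129 to 155 CPM and 143 to 156 CPM, and red cell markers to 1.61 to 14.2 CPM and 1.34 to 5.97 CPM. Among all these markers 3 passed the test used below, 1 of 15 tested double-positive, 1 of 10 myeloid and dendritic, and 1 of 6 epithelial and stromal markers. Of all tested genes 3.68% passed, and counts this small do not set the markers apart from that share. The lymphocyte antigen gene Ly6d was lower in NOD (54.5 CPM, against 88.3 CPM in C57BL/6J). The macrophage receptor gene Csf1r (3.61 against 0.626 CPM) and the collagen gene Col1a2 (1.29 against 0.0210 CPM, near 0 in C57BL/6J) were higher. The call of Ly6d was lost under 7 of 20 other settings, that of Csf1r under 5 and that of Col1a2 without C57BL/6J sample 2. The part of these markers in the values of the long RNAs was not tested.

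Malat1 dominated the set in both strains. Per length it was far above every other member in every library, while the strain difference of none of the 7 RNAs passed the test. All 7 passed the filter on low counts. With edgeR's quasi-likelihood test and Benjamini-Hochberg adjustment, 0 of 7 had an adjusted p under 0.05, where 637 of 17291 tested genes (3.68%) did, 1.91% of genes higher and 1.78% lower in NOD. At an unadjusted p under 0.05 the count was 1 of 7, Snhg12, against 13.1% of all genes. DESeq2 also called 0 of 7, with 2 at an unadjusted p under 0.05, against 855 called and 2044 unadjusted among 35135 genes given a p-value. DESeq2 filters low counts before adjustment, so 35135 is not the number of genes open to a call. Limma-voom on the 8 libraries called 0 of 7, with 1 unadjusted, against 749 and 2206 of 15227 genes. Without the filter on low counts edgeR called 1 of 7, Malat1, with 4 at an unadjusted p under 0.05, against 1188 and 3215 of 35135 genes. Leaving out 1 sample at a time moved the log2 fold changes widely, over 0.055 to 1.14 for Neat1, 0.027 to 1.04 for Kcnq1ot1 and -0.91 to -0.032 for Snhg1. The 3 nuclear RNAs had estimates above 0 (higher in NOD) and the 4 hosts below 0, with a median log2 fold change (NOD over C57BL/6J) of -0.068 over the 7 and 0.020 over all tested genes. In all 7 RNAs the libraries of the strains overlapped, whereas 16.6% of tested genes showed no overlap. In such bulk samples, fewer cells of a type and less RNA per cell cannot be told apart.

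**Figure D1:**
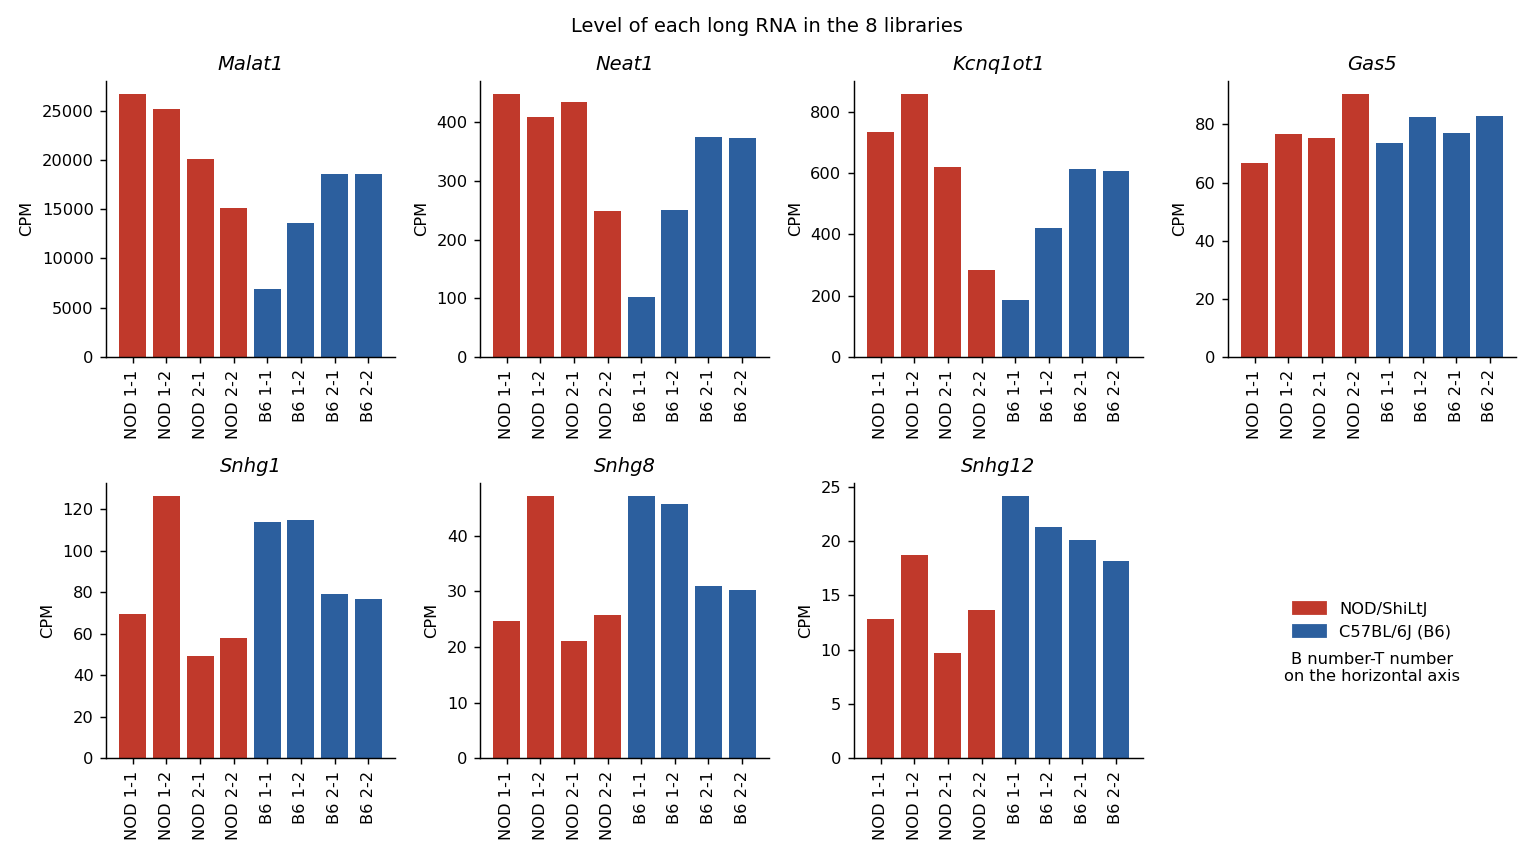
Each panel shows 1 long RNA, with its level in CPM (vertical axis, starting at 0) in the 4 NOD libraries (red, left) and the 4 C57BL/6J libraries (blue, right), 1 bar per library. Malat1, Neat1 and Kcnq1ot1 were lowest in C57BL/6J 1-1, with C57BL/6J 1-2 and NOD 2-2 next, Gas5 varied least, and Snhg1 and Snhg8 were high in NOD 1-2, C57BL/6J 1-1 and C57BL/6J 1-2.

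Malat1 stood at 26689, 25191, 20100 and 15118 CPM in NOD libraries 1-1, 1-2, 2-1 and 2-2, and at 6897, 13543, 18559 and 18550 CPM in C57BL/6J libraries 1-1, 1-2, 2-1 and 2-2. The 3 highest values were NOD libraries and the lowest by far was C57BL/6J 1-1, but NOD 2-2 lay below both C57BL/6J libraries of sample 2. Malat1 averaged 21887 ± 5728 CPM in NOD and 14132 ± 6256 CPM in C57BL/6J (SD over the 2 samples of a strain, n = 2 throughout). Its log2 fold change was 0.60 ± 0.32 (standard error, SE; 95% interval -0.12 to 1.33), with an adjusted p of 0.510 in edgeR. Without the filter on low counts the log2 fold change was 0.61 and passed the threshold (adjusted p = 0.00797), and leaving out 1 sample at a time gave 0.24 to 1.07, with no adjusted p under 0.05. Malat1 alone took 1.51% to 2.67% of the reads in genes in NOD libraries and 0.690% to 1.86% in C57BL/6J libraries, and it ranked 4 of 17291 tested genes by read share, which is not corrected for length. Gm37376, a gene annotated inside Malat1 on the opposite strand, had 112 to 168 reads in NOD libraries and 30 to 88 in C57BL/6J libraries. These are raw reads, and the NOD libraries held more reads in total, so they do not compare the strains. All 453 bases of Gm37376 lie within the Malat1 exon, and the sources used here give neither the strand setting nor the annotation release of the counting. How reads there were assigned to Gm37376 or to Malat1 was not tested.

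Neat1 stood at 448, 409.9, 434 and 248 CPM in NOD libraries 1-1, 1-2, 2-1 and 2-2, and at 103, 249.8, 376 and 374 CPM in the C57BL/6J libraries in the same order. As for Malat1, 3 NOD libraries were highest, and NOD 2-2 lay among the C57BL/6J libraries. The means were 389 ± 56.0 CPM in NOD and 270 ± 149 CPM in C57BL/6J, a log2 fold change of 0.50 ± 0.36 (95% interval -0.39 to 1.40) with an adjusted p of 0.705 in edgeR. Without C57BL/6J sample 2 the log2 fold change of Neat1 was 1.14 (adjusted p = 0.0440), and without C57BL/6J sample 1 it was 0.055. Without the library C57BL/6J 1-1 alone it was 0.31 (adjusted p = 0.649).

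Kcnq1ot1 stood at 735, 858, 619 and 283 CPM in the NOD libraries and at 185, 421, 613 and 606 CPM in the C57BL/6J libraries, in the same order. NOD 2-2 was lower than 3 of the 4 C57BL/6J libraries, and NOD 2-1 lay close to both libraries of C57BL/6J sample 2. The means were 632 ± 234 CPM in NOD and 448 ± 230.3 CPM in C57BL/6J (log2 fold change 0.47 ± 0.42, 95% interval -0.62 to 1.56, edgeR adjusted p = 0.784). Without NOD sample 2 the log2 fold change was 0.81 (adjusted p = 0.0136), and without NOD sample 1 it was 0.027. Without the library C57BL/6J 1-1 alone it was 0.28 (adjusted p = 0.826). Kcnq1, the potassium channel gene on the opposite strand, had 0 to 5 raw reads in NOD libraries and 0 to 1 in C57BL/6J libraries, not scaled to library totals.

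Gas5, a host of many box C/D snoRNAs that is named for its accumulation in growth-arrested cells, differed least between libraries. It stood at 66.8, 76.7, 75.3 and 90.4 CPM in NOD libraries 1-1, 1-2, 2-1 and 2-2, and at 73.6, 82.7, 77.0 and 82.8 CPM in the C57BL/6J libraries in the same order. Both the lowest and the highest value were NOD libraries, with the C57BL/6J values between them. The means were 77.0 ± 7.36 CPM in NOD and 78.2 ± 1.13 CPM in C57BL/6J. The log2 fold change was -0.068 ± 0.16 and its 95% interval ran from -0.44 to 0.30 (edgeR adjusted p = 0.926).

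Snhg1, which hosts a cluster of box C/D snoRNAs, stood at 69.4, 126, 49.5 and 58.1 CPM in the NOD libraries and at 114, 115, 79.3 and 76.8 CPM in the C57BL/6J libraries, in the same order. The highest of all 8 values was NOD 1-2, and the other 3 NOD libraries were below every C57BL/6J library. The means were 75.7 ± 31.6 CPM in NOD and 96.4 ± 25.4 CPM in C57BL/6J, a log2 fold change of -0.40 ± 0.35 (95% interval -1.27 to 0.47) with an adjusted p of 0.771 in edgeR. Without the library NOD 1-2 alone the log2 fold change was -0.73 (adjusted p = 0.144). Without NOD sample 1, to which that library belongs, the log2 fold change of Snhg1 was -0.91 (adjusted p = 0.00370), and without NOD sample 2 it was -0.032.

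Snhg8, a short host gene with 1 annotated snoRNA, had the same pattern at a lower level. It stood at 24.8, 47.2, 21.1 and 25.8 CPM in NOD libraries and at 47.1, 45.8, 30.95 and 30.3 CPM in C57BL/6J libraries. NOD 1-2 again matched the highest C57BL/6J library, and the other 3 NOD libraries lay below all 4 C57BL/6J libraries. The means were 29.6 ± 9.02 CPM in NOD and 38.6 ± 11.2 CPM in C57BL/6J (log2 fold change -0.44 ± 0.29, 95% interval -1.11 to 0.24, edgeR adjusted p = 0.655). Without the library NOD 1-2 the log2 fold change was -0.76 (adjusted p = 0.142), and without C57BL/6J sample 1 it was -0.051.

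Snhg12, a host of box H/ACA and box C/D snoRNAs, was the nearest of the 7 to a strain difference. It stood at 12.8, 18.7, 9.71 and 13.7 CPM in NOD libraries and at 24.2, 21.3, 20.1 and 18.2 CPM in C57BL/6J libraries. The only overlap was NOD 1-2, which lay just above C57BL/6J 2-2, and the other 3 NOD libraries were lower than every C57BL/6J library. The means were 13.6 ± 2.99 CPM in NOD and 21.2 ± 2.499 CPM in C57BL/6J. The log2 fold change was -0.69 ± 0.26 and its 95% interval, -1.27 to -0.10, lay below 0, with an unadjusted p of 0.0259 and an adjusted p of 0.267 in edgeR, rank 1676 of 17291. That interval draws on the spread of all genes as well as on the 4 samples. Leaving out any 1 of the 4 samples gave log2 fold changes of -0.93 to -0.48.

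**Figure D2:**
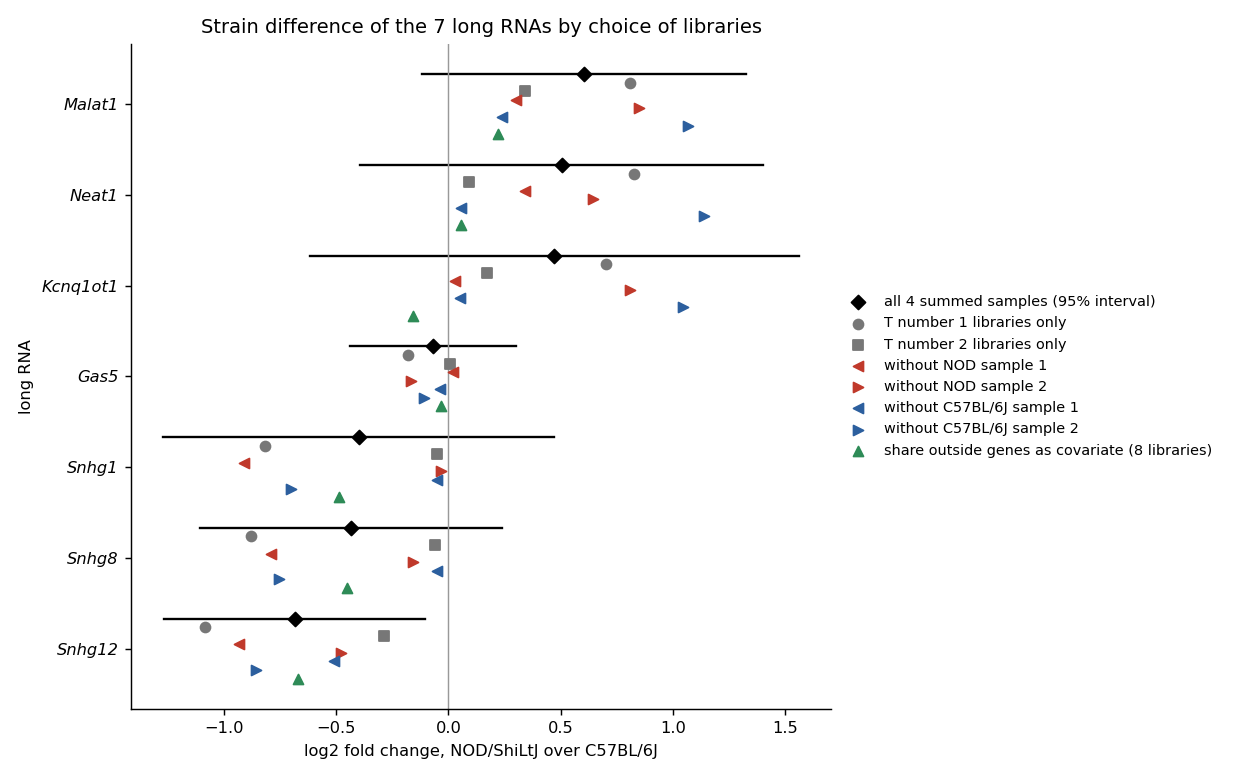
The horizontal axis is the log2 fold change, NOD over C57BL/6J, for each of the 7 long RNAs (rows); black diamonds with bars are the estimates from the 4 summed samples with 95% intervals, and the other marks are the same estimate from 1 set of libraries, with 1 summed sample left out, or with the share of reads outside genes as a covariate. Estimates for Malat1 ranged from 0.24 to 1.07 and for Snhg12 from -0.93 to -0.48 as samples were left out, and Kcnq1ot1 changed sign with the covariate (-0.16).

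Per kilobase of annotated exon, Malat1 averaged 3134 CPM per kb in NOD and 2024 CPM per kb in C57BL/6J. The next was Snhg8 with 34.7 CPM per kb in NOD and 45.3 in C57BL/6J, followed by Snhg1 with 25.5 and 32.5, Gas5 with 20.5 and 20.8, and Neat1 with 18.75 and 13.0 CPM per kb in NOD and C57BL/6J. Kcnq1ot1 came to 6.79 CPM per kb in NOD and 4.81 in C57BL/6J, and Snhg12 to 5.68 in NOD and 8.83 in C57BL/6J. Malat1 was the one member whose range over libraries stood clear of all others in both strains. Snhg8 was above Snhg1 in each of the 8 libraries, although their ranges over the libraries of a strain overlapped, 24.7 to 55.3 against 16.7 to 42.6 CPM per kb in NOD and 35.5 to 55.2 against 25.9 to 38.7 in C57BL/6J. Gas5 and Neat1 also overlapped in NOD (17.8 to 24.1 against 11.95 to 21.6 CPM per kb), as did Kcnq1ot1 and Snhg12 in NOD (3.04 to 9.22 against 4.04 to 7.78), while in C57BL/6J Snhg12 (7.57 to 10.1) lay above Kcnq1ot1 (1.98 to 6.58). With the longest transcript as the length, Gas5 came to 30.1 CPM per kb in NOD and 30.6 in C57BL/6J and passed Snhg1 in NOD, which had 27.75 there and 35.3 in C57BL/6J.

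**Figure D3:**
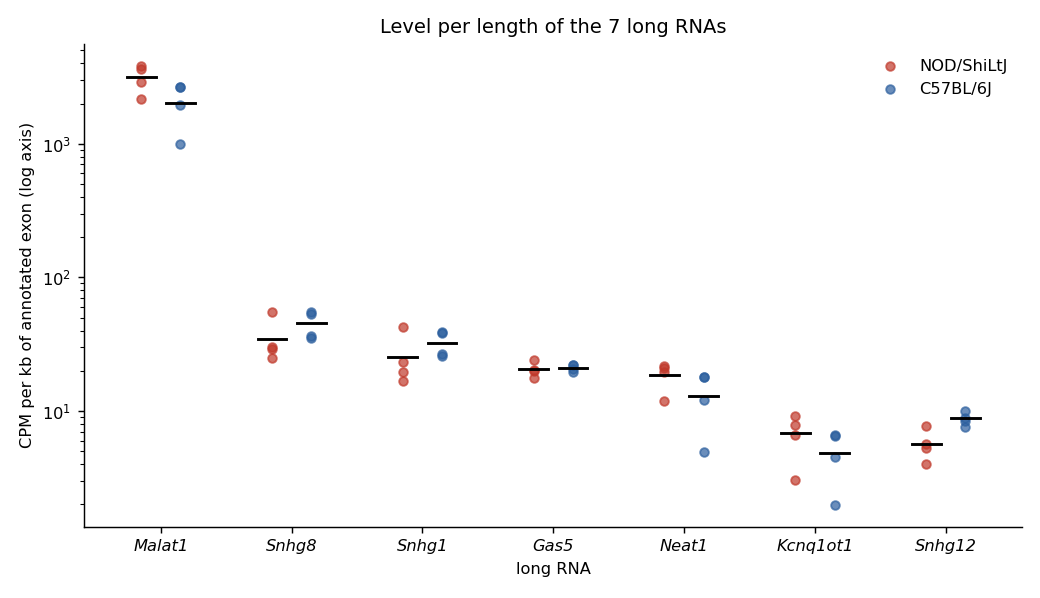
The vertical axis is the level per length, CPM per kb of annotated exon, on a log scale, for the 7 long RNAs; points are single libraries of NOD (red, left) and C57BL/6J (blue, right), and the black bars are the means of the 2 summed samples. Malat1 is at 3134 CPM per kb in NOD and 2024 in C57BL/6J, and the other 6 RNAs all average between 4.81 and 45.3.

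Libraries within a strain differed more in 6 of these RNAs than in most genes, Gas5 being the exception. The pooled SD of log2 CPM within strains was 0.76 for Kcnq1ot1, 0.68 for Neat1, 0.54 for Malat1, 0.48 for Snhg1, 0.44 for Snhg8, 0.30 for Snhg12 and 0.14 for Gas5. The median over the 8515 genes with a mean of at least 10 CPM was 0.20, and 97.8% of them had a smaller SD than Kcnq1ot1, 93.7% than Malat1 and 23.7% than Gas5. Libraries of the same sample could differ as much as the strains. In C57BL/6J sample 1, T number 2 over T number 1 was 1.96 for Malat1, 2.44 for Neat1 and 2.28 for Kcnq1ot1, whereas in C57BL/6J sample 2 the ratios were 1.00, 0.995 and 0.989. In NOD sample 2 they were 0.752, 0.572 and 0.457. For Snhg1 and Snhg8 the pair that differed was NOD sample 1, with ratios of 1.82 and 1.90, and for Gas5 the 4 ratios were 1.08 to 1.201. Estimates from the T number 1 libraries were accordingly farther from 0 than those from the T number 2 libraries, 0.81 against 0.34 on the log2 scale for Malat1 and -1.09 against -0.29 for Snhg12, none with an adjusted p under 0.05.

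The 3 nuclear RNAs varied together with the share of reads outside annotated genes, an ordering examined after the values were seen. From C57BL/6J 1-1 (39.98%) through NOD 2-2, C57BL/6J 1-2, C57BL/6J 2-2, C57BL/6J 2-1, NOD 2-1 and NOD 1-1 to NOD 1-2 (59.1%), Kcnq1ot1 was higher at every step, so all 28 pairs of libraries had the same order in both measures. Of the 17291 tested genes 24 (0.139%) were higher at every step and 4 lower. Malat1 and Neat1 had 26 of 28 pairs in that order, a number reached by 1.73% of tested genes. The hosts had 14 (Snhg1), 12 (Snhg8), 9 (Gas5) and 9 (Snhg12), near or below the median of 15 over all tested genes. Both measures come from the same reads, and the NOD libraries as a group also had the larger shares. With that share as a covariate in limma-voom on the 8 libraries, the log2 fold change was 0.22 for Malat1, 0.054 for Neat1 and -0.16 for Kcnq1ot1. For the hosts it was -0.034 (Gas5), -0.49 (Snhg1), -0.45 (Snhg8) and -0.67 (Snhg12). That fit called 0 of the 7, and 7.81% of its 16478 genes. At an unadjusted p under 0.05 it had 2 of the 7, Malat1 (0.0231) and Snhg12 (0.0220), against 3259 of all its genes. Limma-voom without the covariate gave Malat1 an unadjusted p of 0.0998.

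**Figure D4:**
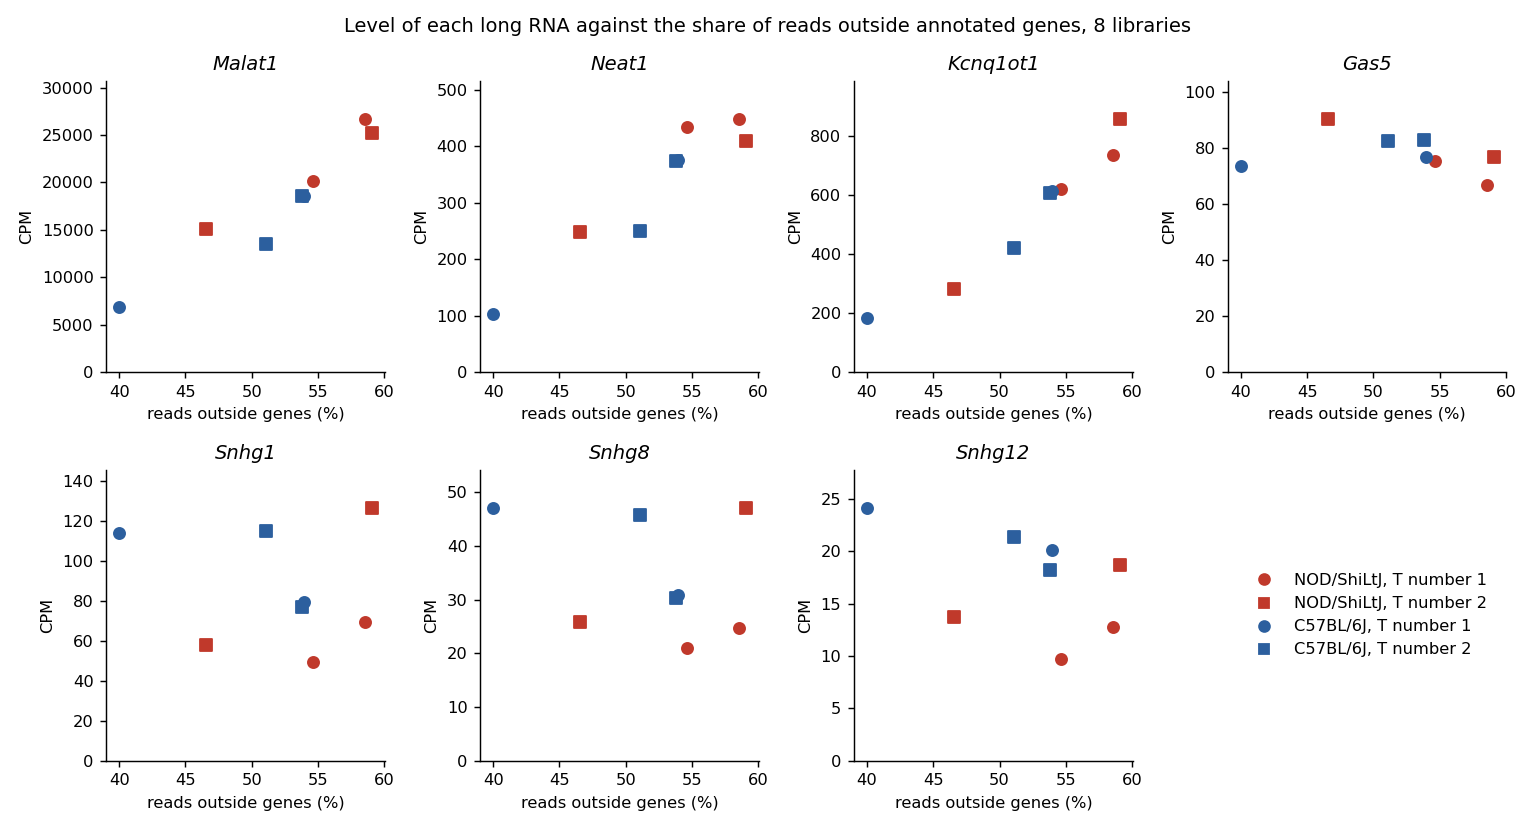
Each panel plots the CPM of 1 long RNA (vertical axis, from 0) against the percentage of reads outside annotated genes (horizontal axis) in the 8 libraries, NOD in red and C57BL/6J in blue, with circles for T number 1 and squares for T number 2. Malat1, Neat1 and Kcnq1ot1 lie along 1 rising band that holds both strains, and the 4 snoRNA hosts do not.

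For each RNA the 3 genes nearest in profile over the 8 libraries were taken from 8514 other genes by the root-mean-square difference of mean-centred log2 CPM, given in parentheses. For Malat1 the nearest were A630072M18Rik (0.0765), Gm26890 (0.100) and 9430034N14Rik (0.101), with Neat1 at place 47 and Kcnq1ot1 at place 191. For Neat1 they were Gm45779 (0.0990), Gm43696 (0.101) and Gm44164 (0.117), and for Kcnq1ot1 Gm37879 (0.0612), Gm44664 (0.0743) and Gm43788 (0.0803). These 9 are noncoding or unclassified transcripts by annotation. Snhg1 and Snhg8 were near each other (0.0955), first among all genes for Snhg1 and second for Snhg8. Snhg8 was nearest to Gm5805 (0.0799), a processed pseudogene that was second for Snhg1 (0.119). The third for Snhg1 was Gm23153, a noncoding RNA of the class misc_RNA (0.125), and the third for Snhg8 was the processed pseudogene Gm14586 (0.136). The nearest to Snhg12 were 3 processed pseudogenes, Rps24-ps3 (0.0801), Gm8430 (0.103) and Rps12-ps4 (0.120). For Gas5 they were the protein-coding genes Nxn (0.0394), Kat5 (0.0555) and Zfp511 (0.0681), and a flat profile would stand at 0.123 from it.

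The snoRNAs inside the hosts were almost unseen in these tables. GENCODE M21 places 24 snoRNA genes on the same strand inside the 4 hosts, 10 in Gas5, 8 in Snhg1, 1 in Snhg8 and 5 in Snhg12, and 1 of them had any count, against 413 of all 1507 snoRNA identifiers (27.4%). All 24 overlap an exon of their host in GENCODE M21, the 1 with counts included. The annotation release of the counting is not given in the sources used here. How reads there were assigned is therefore not known, and a count of 0 does not measure the snoRNA. Snora16a (ENSMUSG00000105911) in Snhg12, a box H/ACA snoRNA, had 31, 47, 20 and 19 reads in NOD libraries 1-1, 1-2, 2-1 and 2-2, and 40, 21, 28 and 17 reads in the C57BL/6J libraries in the same order. Those raw reads are not scaled to the larger totals of the NOD libraries, so they do not compare the strains. Snora16a is shown with Snord47, a box C/D snoRNA of Gas5 at 0 reads, as an example of each class, both from GENCODE M21 transcripts. The capitals mark the ACA box in Snora16a, and box C (TGATGA) and box D (CTGA) in Snord47.
Snora16a, chr4:132309464-132309600, plus strand, GRCm38: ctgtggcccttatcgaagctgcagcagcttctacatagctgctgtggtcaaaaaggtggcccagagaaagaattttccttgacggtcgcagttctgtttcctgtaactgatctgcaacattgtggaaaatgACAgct
Snord47, chr1:161038082-161038158, plus strand, GRCm38: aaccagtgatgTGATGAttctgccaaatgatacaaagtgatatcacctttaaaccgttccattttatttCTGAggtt

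Among the partners of these RNAs in the nuclear bodies the same test called 1 gene, the kinase gene Srpk2, which as 1 of 26 genes in its list is near the 3.68% called among all tested genes. Of 24 tested paraspeckle proteins 0 passed (median log2 fold change -0.0030), and the most abundant were Smarca4, a chromatin remodelling ATPase, at 973 CPM in NOD and 995 CPM in C57BL/6J, and Sfpq, a core paraspeckle protein, at 724 and 875 CPM (adjusted p = 0.622). Of 26 nuclear speckle and SR protein genes 1 passed. Srpk2, a kinase that phosphorylates SR splicing factors, rose in NOD to 287 ± 38.8 CPM, against 94.2 ± 15.1 CPM in C57BL/6J (log2 fold change 1.57 ± 0.18, edgeR adjusted p = 0.00154), and its 4 values in NOD libraries lay above every C57BL/6J value. It passed under all 20 other settings tried, with log2 fold changes of 1.39 to 1.70. The median of the list was 0.036. Son and Srrm2, which form the core of speckles, had 1255 and 1244 CPM in NOD, and 1159 and 1267 CPM in C57BL/6J.

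In the imprinted domain of Kcnq1ot1, 8 of 15 listed genes were tested and 0 passed, with a median of -0.012. A count of 0 in so short a list is not set apart from the 3.68% called among all tested genes. Nap1l4, a histone chaperone, had 155 CPM in NOD and 162 CPM in C57BL/6J, and the tetraspanin Tspan32 had 92.2 and 73.0 CPM. Cdkn1c, a cell cycle inhibitor known as a target of Kcnq1ot1 in mouse, had 2.34 CPM in NOD and 3.51 CPM in C57BL/6J (adjusted p = 0.743), and Slc22a18, Phlda2 and Ascl2 were at 0 in every library. The 2 nearest protein-coding genes on each side of the 7 RNAs came to 24 distinct genes. Of these 15 were tested and 0 passed, again too few to set against that share. Their median log2 fold change was -0.093 and their lowest adjusted p in edgeR 0.163. That lowest value belonged to Wdr74 beside Snhg1, a gene of ribosome assembly, with 2.73 CPM in NOD and 6.11 CPM in C57BL/6J. Frmd8, which lies 4.224 kb from Neat1, had 65.0 CPM in NOD and 86.5 CPM in C57BL/6J (adjusted p = 0.258), and its strains did not overlap.

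Of 14 other noncoding snoRNA hosts found in the tables, 11 were tested and 0 passed, with a median log2 fold change of 0.20. For these and for the protein-coding hosts below, a count of 0 is not set apart from the 3.68% called among all tested genes. Snhg20 had 13.4 ± 4.55 CPM in NOD and 25.0 ± 4.02 CPM in C57BL/6J (log2 fold change -0.95 ± 0.29, edgeR adjusted p = 0.144). Its libraries did not overlap, as for 16.6% of all tested genes. Snhg17 had 26.4 CPM in NOD and 24.8 CPM in C57BL/6J. Of 17 protein-coding snoRNA hosts 0 passed and 16 had estimates below 0, with a median of -0.15, where 8248 of all 17291 tested genes had estimates below 0. With plain library totals 15 did, with a median of -0.10, and with all listed reads as totals, which moved the median of all genes to -0.13, the list's median was -0.33. The elongation factor gene Eef2 had 1307 CPM in NOD and 1727 CPM in C57BL/6J (adjusted p = 0.485), and Ncl, which encodes nucleolin, had 960 and 1217 CPM (adjusted p = 0.557). The summed level of these 17 overlapped, 5637 to 7349 CPM in NOD libraries and 6976 to 7926 CPM in C57BL/6J libraries.

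The machinery that handles these RNAs showed 0 passing genes. With 3.68% of all tested genes called, a count of 0 in lists this short does not set them apart from other genes. Of 19 genes of snoRNA-protein particles and their assembly, with a median log2 fold change of 0.031, the core box C/D proteins Nop58 and Nop56 had 102 and 102 CPM in NOD, and 103 and 80.1 CPM in C57BL/6J. Of 18 nonsense-mediated decay factors, with a median of -0.041, the kinase Smg1 had 1009.7 CPM in NOD and 891 CPM in C57BL/6J, and the helicase Upf1 had 204 and 239 CPM. Of 15 other nuclear or imprinted long RNAs found, 11 were tested, with a median of 0.092. Those 3 lists and the paraspeckle and imprinted-domain lists had medians within 0.1 of the median of all genes, and the sign of some turned under other scalings. Among them Tug1 had 153 CPM in NOD and 164 CPM in C57BL/6J, and Dleu2, the host of the mir-15a and mir-16 cluster, had 118 CPM in NOD and 97.1 CPM in C57BL/6J.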

How the data were processed

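RNA was measured in 8 libraries of sorted double-positive thymocytes, 4 of NOD/ShiLtJ and 4 of C57BL/6J. The authors deposited raw counts per Ensembl gene, whole numbers without normalization, 1 table per library. The genome build GRCm38, the aligner STAR 2.5.0a and the counter HTSeq 0.6.1 are named per the submitters' processing notes. For the annotation release, the strand setting and read filters the entry is: not given in the sources used here. Of 53465 identifiers, 53274 were in GENCODE M21 and 191 were not, and mitochondrial genes had 0 reads in all libraries. Reads outside genes and ambiguous reads (0.694% to 2.38% per library) stayed out of totals and tests.

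Libraries of 1 strain with the same B number were added into 4 samples of 23.8 to 55.6 M reads in genes. Genes kept by filterByExpr were scaled by TMM and tested across the whole table with edgeR 4.0.16 (robust quasi-likelihood F-test, strain only, 2 residual degrees of freedom, two-sided, Benjamini-Hochberg adjusted p under 0.05) in R 4.3.3. The SE is the log2 fold change divided by the square root of F, and 95% intervals use it. Both draw the spread of each gene towards that of all genes, whereas most of these RNAs varied more between libraries than most genes. Limma 3.58.1 and DESeq2 1.42.0 gave alternatives. The scripts were tested on simulated data. No 2 libraries were identical, and no pair agreed within sampling noise. CPM uses plain totals, and nearness used genes of at least 10 CPM with a pseudocount of 0.01 CPM. Sequences came from RefSeq and GENCODE M21.

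All 7 RNAs are named. From each gene list the called genes (at most 5) and the 2 most abundant are named, for each RNA the 3 genes nearest in profile, and snoRNAs with any count. Marker lists are given by sums and called genes, and the 2 nearest protein-coding genes on each side of each RNA by counts. Wdr74, Frmd8, Cdkn1c and Snord47 were singled out after their values were seen. The members and lists were chosen with earlier results of these data known.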

Additional observations from a re-analysis of the deposited data

How the results depend on the processing

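Of 140 estimates for the 7 RNAs under other settings, 131 kept their direction and their side of the threshold, 4 passed the threshold and 5 changed sign. Leaving out 1 sample at a time gave log2 fold changes of 0.24 to 1.07 (Malat1), 0.055 to 1.14 (Neat1), 0.027 to 1.04 (Kcnq1ot1), -0.17 to 0.021 (Gas5), -0.91 to -0.032 (Snhg1), -0.79 to -0.051 (Snhg8) and -0.93 to -0.48 (Snhg12). Those fits called 0 to 1 of the 7 and 256 to 1389 of all genes, and the sample left alone in its strain is assumed to vary like the others. Without the filter on low counts Malat1 passed (0.61, adjusted p = 0.00797), so 1 of the 7 was called and 1188 genes in all. The T number 2 libraries alone called 342 genes, with Gas5 at 0.0061. Gas5 was at 0.021 without NOD sample 1. Settings chosen after seeing the data were the share of reads outside genes as a covariate, which called 362 genes in edgeR (Kcnq1ot1 -0.10, Gas5 0.012) and 1287 in limma-voom (Kcnq1ot1 -0.16), and all listed reads as totals, which called 1070 genes and moved the median of all genes to -0.13. Also chosen after seeing the data were sums without the library C57BL/6J 1-1, NOD 1-2 or NOD 2-2, which called 786, 726 and 757 genes and 0 of the 7. The cause of these changes was not tested, apart from the sample or filter each setting removes.

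The replicate block by B number called 513 genes and changed no call among the 7 (Malat1 0.64, Snhg12 -0.69). The labels do not say that a B number marks a shared batch, so the numbers were not taken to pair the samples. Same-numbered samples had a correlation of deviations of -0.16 and crossed samples 0.16. With 2 samples per strain the 1 value is the negative of the other by construction, so it cannot decide on the pairing. The crossed pairing, chosen after seeing the data, called 768 genes. An intron-only rule left 0 snoRNAs inside the hosts. With 2 samples per strain, the 95% intervals of Malat1, Neat1, Kcnq1ot1, Snhg1 and Snhg8 include both 0 and a change of more than 1 log2 unit.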
